A study of Mus musculus with 22 samples.

Results

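The comparison set 5-methylcytosine (5mC) in whole cerebellum against whole cerebral cortex without the hippocampus, both from female C57BL/6 mice at 8 weeks of age, over windows (bins) of 100 kb. The members were the autosomal bins with a 5mC level above 0 and below 1 in every library compared, which left 24011 of 24618 autosomal bins and of 26327 bins in the deposited tables. The levels came from oxBS-seq, a bisulfite method in which 5-hydroxymethylcytosine (5hmC) is oxidised beforehand and reads as T, which leaves 5mC as the one form counted, with 3 libraries of cortex and 2 of cerebellum. The labels name no transgene or treatment, the replicates of a tissue came from independent mice, and the 2 olfactory bulb libraries of the same strain and age were used only for reference. Of the 607 autosomal bins left out, 587 were listed at 0 in all 5 libraries, and 589 consisted mostly of unresolved bases. The level of a bin is a share of cytosines from 0 to 1, deposited without read counts, so the depth behind it is unknown and its error was taken from the spread between libraries.

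In mammals 5mC lies mostly at CG dinucleotides (CpG sites), where DNA methyltransferases place and copy it, and TET enzymes oxidise it to 5hmC, which is abundant in neurons. Most of the genome is highly methylated, while CpG-rich promoters are kept free of 5mC, and long regions of low methylation cover genes that define the cell's identity. The cerebellum holds mainly granule neurons, small excitatory cells whose axons, the parallel fibres, contact the Purkinje cells, the sole output neurons of the cerebellar cortex. The cerebral cortex holds excitatory projection neurons, inhibitory interneurons and several types of glia. The tissues were taken whole, so a different make-up of cells and a different 5mC level per cell cannot be told apart in these bulk levels.

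To show the kind of sequence in the bins that moved most, the 250 bases before the annotated start of a gene are printed for the 3 bins of largest rise and the 3 of largest fall that hold a gene start. They were read from the GRCm38 sequence and are given 5′ to 3′ on the gene's strand, with CpG sites in capitals. The genes starting in bins with higher 5mC in cerebellum were Mef2c, Prickle1 and Cdh11. Mef2c is a transcription factor of cortical excitatory neurons (chr13:83503784-83504033, plus strand). Prickle1 is a protein of planar cell polarity (chr15:93595892-93596141, minus strand), and Cdh11 a cell adhesion cadherin (chr8:102785643-102785892, minus strand). Those starting in bins with lower 5mC were Fat2, Slc4a4 and Sh3gl2. Fat2 is a giant cadherin of cerebellar granule neurons (chr11:55336565-55336814, minus strand). Slc4a4 is a sodium bicarbonate cotransporter of astrocytes (chr5:88886568-88886817, plus strand). Sh3gl2 encodes the synaptic vesicle protein endophilin A1 (chr4:85204876-85205125, plus strand).
Mef2c: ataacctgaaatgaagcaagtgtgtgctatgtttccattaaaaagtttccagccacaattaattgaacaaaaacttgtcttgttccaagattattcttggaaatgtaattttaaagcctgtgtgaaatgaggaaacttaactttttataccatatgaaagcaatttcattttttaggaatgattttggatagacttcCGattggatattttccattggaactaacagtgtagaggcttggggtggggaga
Prickle1: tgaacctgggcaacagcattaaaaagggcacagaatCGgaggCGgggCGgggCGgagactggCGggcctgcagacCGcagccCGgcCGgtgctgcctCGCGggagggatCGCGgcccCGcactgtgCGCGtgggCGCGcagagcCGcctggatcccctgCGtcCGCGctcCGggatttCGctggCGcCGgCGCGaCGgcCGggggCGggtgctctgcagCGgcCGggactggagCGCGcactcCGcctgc
Cdh11: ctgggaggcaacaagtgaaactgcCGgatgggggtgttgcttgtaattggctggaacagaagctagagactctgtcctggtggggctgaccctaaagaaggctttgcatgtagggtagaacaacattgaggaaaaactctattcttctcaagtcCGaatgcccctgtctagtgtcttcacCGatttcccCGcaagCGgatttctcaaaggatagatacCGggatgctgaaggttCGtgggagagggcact
Fat2: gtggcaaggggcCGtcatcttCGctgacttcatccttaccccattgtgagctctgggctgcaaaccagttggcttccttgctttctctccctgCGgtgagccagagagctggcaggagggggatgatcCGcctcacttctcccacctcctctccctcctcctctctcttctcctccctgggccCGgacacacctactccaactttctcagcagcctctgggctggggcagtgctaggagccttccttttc
Slc4a4: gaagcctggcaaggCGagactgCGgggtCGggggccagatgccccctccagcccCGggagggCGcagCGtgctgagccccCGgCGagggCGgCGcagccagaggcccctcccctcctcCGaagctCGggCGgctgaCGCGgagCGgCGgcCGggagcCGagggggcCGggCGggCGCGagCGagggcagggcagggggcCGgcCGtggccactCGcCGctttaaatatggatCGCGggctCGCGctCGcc
Sh3gl2: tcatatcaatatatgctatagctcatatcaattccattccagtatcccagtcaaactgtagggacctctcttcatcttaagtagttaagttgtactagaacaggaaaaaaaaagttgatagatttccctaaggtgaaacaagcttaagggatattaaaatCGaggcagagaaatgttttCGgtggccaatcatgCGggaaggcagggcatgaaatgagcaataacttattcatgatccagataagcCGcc
Both directions included a CpG-rich and a CpG-poor start. The window of Prickle1 held 35 CpG sites and that of Slc4a4 held 33, against 1 for Mef2c, 7 for Cdh11, 5 for Fat2 and 4 for Sh3gl2, and the median over the windows of 20807 autosomal protein-coding genes was 8. Such a window holds at most 3.09% of the CpG sites of its bin, so the levels below describe mostly the body of the gene and its surroundings and not these bases.

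The 5mC level was higher in cerebellum than in cortex over most of the autosomes. The mean over the bins was 0.681, 0.684 and 0.657 in the cortex libraries and 0.741 and 0.724 in the cerebellum libraries. Both cerebellum libraries lay above all cortex libraries, and the means of 0.674 ± 0.0147 (SD, n = 3) and 0.732 ± 0.0115 (SD, n = 2) differed by 0.0584 with a standard error of 0.0118. The two-sided exact permutation test gave p = 0.1, the smallest value that 2 libraries against 3 allow. Across bins, Pearson's r was between 0.950 and 0.984 for libraries of the same tissue and between 0.822 and 0.839 for libraries of different tissues, as a description of bins that share a library. The olfactory bulb libraries had means of 0.707 and 0.703, between those of cortex and cerebellum.

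**Figure D1:**
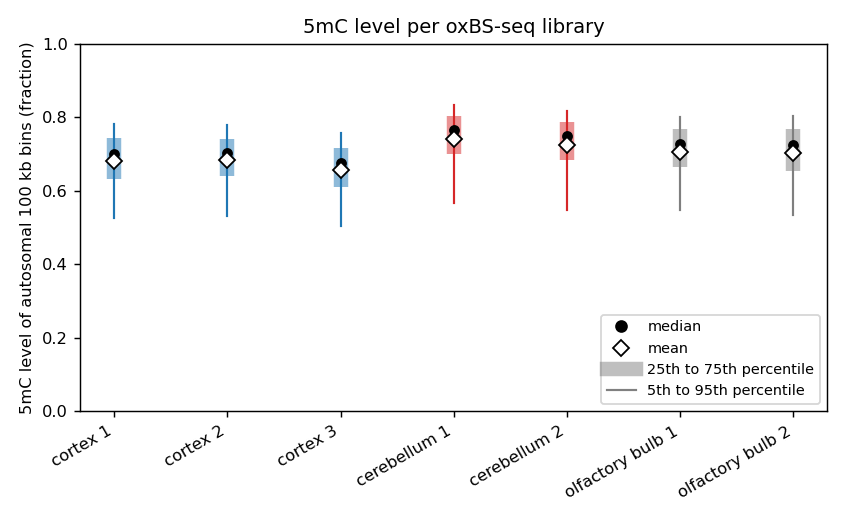
5mC level (fraction) of the 24011 autosomal 100 kb bins in each oxBS-seq library, with the median and mean as points and the 25th to 75th and 5th to 95th percentiles as bars and lines. The means of the cerebellum libraries (0.741 and 0.724) sit above those of the 3 cortex libraries (0.657 to 0.684) and of the olfactory bulb libraries (0.707 and 0.703).

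Bin by bin, the level rose far more often than it fell. With limma on log2(level/(1 − level)) and a Benjamini-Hochberg adjusted p under 0.05, 17851 bins were higher in cerebellum (74.3% of the bins tested) and 814 were lower (3.39%), which makes 77.7% in either direction, while 5346 were not called. Among the called bins, the libraries of the tissues did not overlap in 17646 of the higher and 773 of the lower bins, against 19329 (80.5%) and 1117 (4.65%) of all bins without regard to the call. The median difference over all bins was 0.0613, and 91.0% of the bins had a difference above 0. The falls were fewer, and only the most extreme of them went beyond the largest rise. The median difference was 0.0723 in the bins called higher and -0.0599 in those called lower. The largest fall was -0.419 and the largest rise 0.384. Among the called bins without overlap between tissues, 86 rose and 31 fell by more than 0.2. For a change of more than 0.1 the counts were 3445 and 171. The standard error on the log2 scale was 0.13 in every bin, because limma's moderation gave 1 pooled variance for the whole table, so a bin's p does not reflect its own replicates.

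These counts carry the shift of whole libraries. When each library was centred on its median, which took away a shift of 0.41 on the log2 scale, 6659 bins were higher and 4839 lower, so the share of calls that were higher went from 95.6% to 57.9%. The median standard error on the log2 scale was 0.078 after centring, against 0.13 before, so smaller differences could be called. Of the 814 falls 813 were also called lower after centring, and 6659 of the 17851 rises were also called higher. Centring lowers the difference of every bin by the same amount on the log2 scale. It favours falls by construction, so these counts do not compare how firm the falls and the rises are. The count of falls also depended on single libraries: it was 530 without cortex 1, 390 without cerebellum 2 and 1228 without cortex 3.

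**Figure D2:**
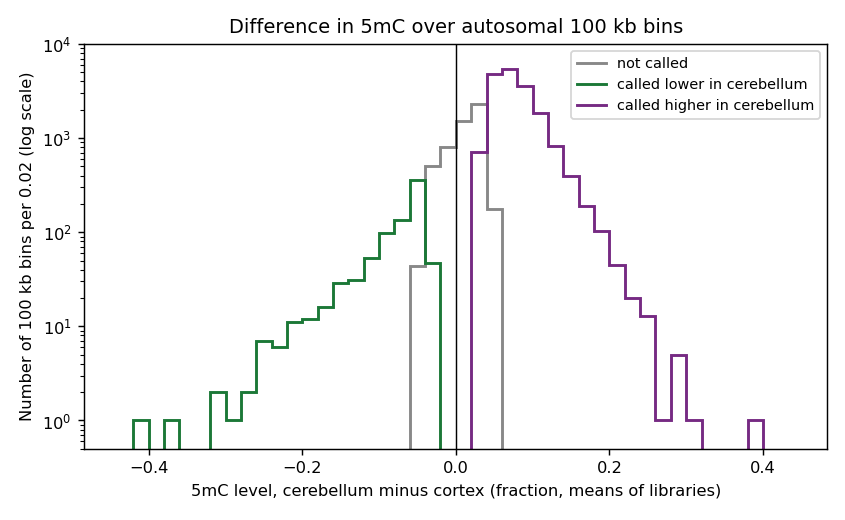
Number of autosomal 100 kb bins (log scale) by the difference in 5mC level, cerebellum minus cortex, in steps of 0.02, for bins called higher (17851), called lower (814) and not called (5346). The bulk lies to the right of 0 around the median of 0.0613, and the left tail reaches -0.419 while the right tail reaches 0.384.

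The 12 largest rises had differences from 0.254 to 0.384, and each bin was covered mostly by 1 gene. The bin with the largest rise lay wholly inside Zeb2 (ENSMUSG00000026872.17, chr2:44983632-45117395, minus strand), a zinc finger transcription factor of neural development. Its 5mC level was 0.358, 0.321 and 0.345 in cortex and 0.742 and 0.708 in cerebellum. All cortex libraries lay below 0.4 and both cerebellum libraries above 0.7, a rise of 0.384 or 2.35 ± 0.13 (standard error) on the log2 scale, with a limma adjusted p of 4.4e-71. The olfactory bulb libraries, at 0.252 and 0.237, lay even lower than those of cortex. Outside this bin the contrast was smaller: the bin over the start of Zeb2 rose by 0.129, the bin over its end by 0.163, and the next bins on either side by 0.0971 and 0.112.

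Cttnbp2 (chr6:18366478-18514843) encodes a cortactin-binding protein of dendritic spines. The bin inside it had levels of 0.503, 0.502 and 0.476 in cortex and 0.816 and 0.796 in cerebellum. The tissues were separated by almost 0.3, the mean rise was 0.313, and the olfactory bulb libraries, at 0.482 and 0.485, lay among those of cortex. Cortex and olfactory bulb thus shared a trough over Zeb2 and Cttnbp2 that was shallow or missing in cerebellum. The bin with most of Mef2c, whose upstream sequence is printed above, went from 0.423, 0.434 and 0.416 in cortex to 0.724 and 0.720 in cerebellum, and its olfactory bulb libraries (0.429 and 0.437) overlapped the cortex libraries.

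Among the other rises, the olfactory bulb lay nearer to cerebellum than to cortex in Tjp1, Flrt2, Ptn and Khdrbs3. The bin in Tjp1, which encodes the tight junction scaffold ZO-1, had levels of 0.478, 0.459 and 0.475 in cortex and 0.777 and 0.757 in cerebellum. The bin in Kalrn, a guanine nucleotide exchange factor of dendritic spines, had 0.539, 0.526 and 0.503 against 0.825 and 0.796. The bin in Prickle2, a polarity protein related to Prickle1, had 0.472, 0.460 and 0.486 against 0.769 and 0.743. The remaining bins lay in Flrt2, an adhesion protein of axon guidance, Ptn, a secreted growth factor, Khdrbs3 and Celf2, both RNA-binding regulators of splicing, Asap1, a GTPase-activating protein for Arf, and Myo3a, an unconventional myosin, with rises from 0.254 to 0.280. The Myo3a bin had only 292 CpG sites, and its levels of 0.468, 0.337 and 0.232 in cortex and 0.680 and 0.571 in cerebellum spread far more than those of the others. Its cortex SD was 0.118, while the median cortex SD of the 12 bins was 0.0178, and it was no longer called when limma's trend and robust options let the spread vary (adjusted p = 0.092).

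The deepest fall lay in Chd7 (ENSMUSG00000041235.12, chr4:8690406-8867659, plus strand), a chromatin remodeller needed for the development of granule neurons. The bin wholly inside the gene had levels of 0.619, 0.617 and 0.590 in cortex and 0.187 and 0.192 in cerebellum. The cerebellum libraries lay close together and far below every cortex library, a difference of -0.419 or -2.74 ± 0.13 on the log2 scale (limma adjusted p = 1.1e-96). The olfactory bulb libraries, at 0.585 and 0.582, were close to cortex. The bin with the gene's end fell by 0.243 and the bin with its start fell by 0.0567. The next bin upstream rose by 0.0748, and the next downstream was not called, with a difference of 0.0318.

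Grm4 (chr17:27422387-27521403, minus strand) encodes mGluR4, a metabotropic glutamate receptor of parallel fibre terminals. The bin that holds most of its body had levels of 0.688, 0.725 and 0.666 in cortex and 0.339 and 0.325 in cerebellum, a mean fall of 0.361. The next bin, which holds the start of Grm4, fell less, from 0.447 ± 0.0276 (SD, n = 3) to 0.384 ± 0.00302 (SD, n = 2). Chn2 (chr6:54039554-54301810) encodes beta-chimaerin, a GTPase-activating protein for Rac. Its lowest bin had 0.653, 0.667 and 0.608 in cortex and 0.330 and 0.329 in cerebellum, and the olfactory bulb libraries (0.662 and 0.640) overlapped the cortex libraries.

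Rbfox3 (ENSMUSG00000025576.17, chr11:118489762-118911597, minus strand) encodes NeuN, an RNA splicing factor used as a marker of neurons, which granule neurons express strongly. It was the gene of 3 of the 12 largest falls. The bin nearest to its start that lay wholly inside it had levels of 0.534, 0.528 and 0.514 in cortex and 0.214 in both cerebellum libraries. The following bins fell from means of 0.502, 0.539 and 0.507 to 0.245, 0.278 and 0.280, so the low level in cerebellum ran over the 4 bins inside the gene. It ended with the gene: the bin over the start was at 0.519 in cortex and 0.518 in cerebellum, and the bin over the end at 0.525 and 0.553, and neither was called.

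The other falls among the first 12 lay in Fat2, Cnksr3, a scaffold protein, Slc4a4, Zmiz1, a transcriptional coregulator, Sh3gl2 and Wscd2, with differences from -0.285 to -0.248. The Fat2 bin is shared with the matrix protein gene Sparc, and Fat2 covered only 36.6% of it. This bin had levels of 0.689, 0.700 and 0.660 in cortex and 0.410 and 0.385 in cerebellum. The bin with the start of Slc4a4 had 0.649, 0.672 and 0.653 against 0.391 and 0.407, and only 13.2% of it was covered by that gene. The bin with the start of Sh3gl2 had 0.526, 0.509 and 0.544 against 0.274 and 0.277. Further inside Sh3gl2 there was little change: the 3 bins wholly inside it had means of 0.655 and 0.645. As a long gene it was not called (limma adjusted p = 0.548). The 24 bins were chosen for tissues that do not overlap, and they had limma adjusted p-values of at most 2.11e-28.

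**Figure D3:**
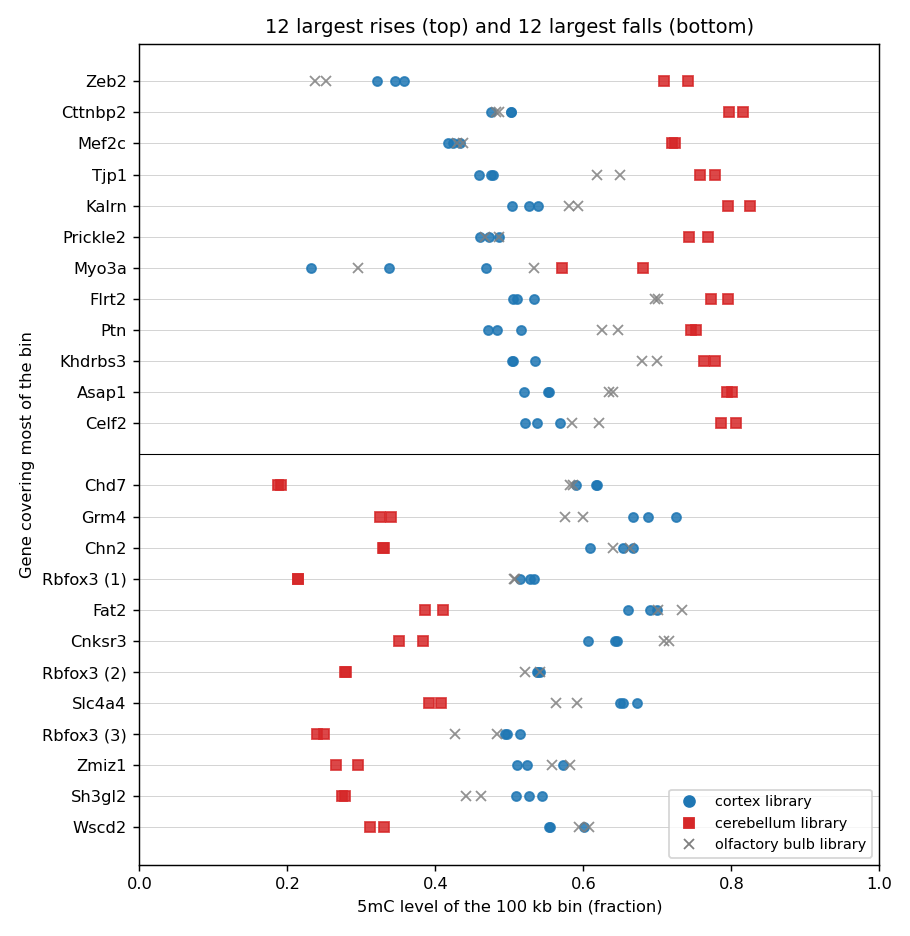
5mC level (fraction) of the 12 autosomal 100 kb bins with the largest rise (top) and the 12 with the largest fall (bottom) in cerebellum, 1 point per library, labelled by the gene that covers more of the bin than any other, with Rbfox3 numbered by the size of the fall. Bins were chosen for libraries that do not overlap between tissues. The means run from 0.341 in cortex and 0.725 in cerebellum for Zeb2 to 0.569 and 0.321 for Wscd2, and the Myo3a row shows the widest spread within cortex (SD 0.118).

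The readouts that did not choose these bins were the olfactory bulb 5mC and the TAB-seq 5hmC, a method that reads only 5hmC as C, deposited in bins of 1 Mb for 3 libraries per tissue. The olfactory bulb lay nearer to cortex than to cerebellum in all 12 bins of largest fall and in 8 of the 12 of largest rise. Over all bins called lower this held for 93.2% of bins, against 50.6% of bins called higher and 50.2% of all bins. Nearness is measured against the cortex and cerebellum levels that chose the bins, so these shares are not independent of the choice. In the bins called lower, the mean level was 0.675 in olfactory bulb, 0.659 in cortex and 0.580 in cerebellum. The 31 bins with a fall of more than 0.2 all overlapped a protein-coding gene, as did 96.5% of the 86 with a rise of more than 0.2, against 64.8% of all bins. They were also richer in G and C, with a median of 48.2% against 40.2% in the 86 rising bins and 41.4% in all bins, and held a median of 1234 CpG sites against 728.5 and 776.

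**Figure D4:**
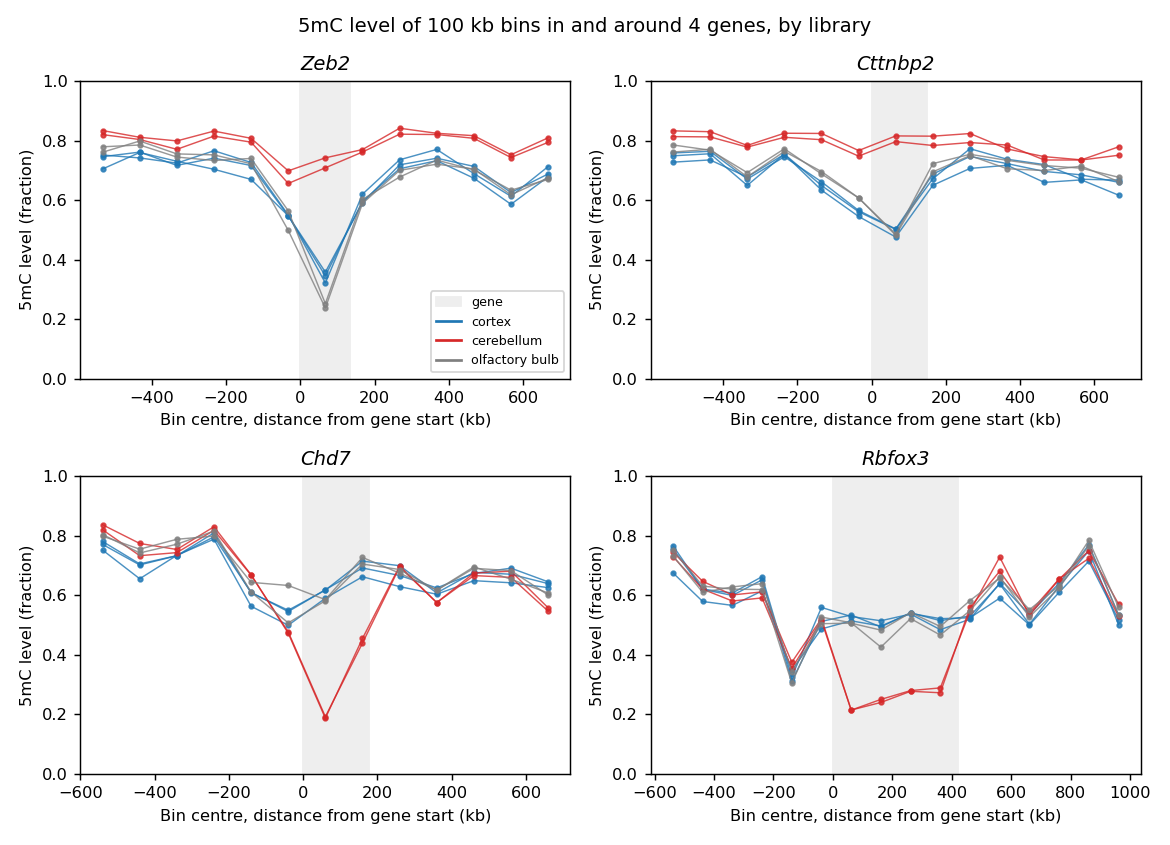
5mC level (fraction) of 100 kb bins by the distance of the bin centre from the gene start in kb, 1 line per library, for Zeb2, Cttnbp2, Chd7 and Rbfox3, with the gene shaded. In Zeb2 the cortex lines dip to a mean of 0.341 where cerebellum stays at 0.725, in Chd7 the cerebellum lines dip to 0.189 where cortex stays at 0.609, and in Rbfox3 the cerebellum means are at or below 0.280 over 4 bins.

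Genes long enough to hold at least 2 whole bins showed the same imbalance. Of 708 such autosomal genes, 586 were higher in cerebellum (82.8%) and 43 lower (6.07%), together 88.8%, by limma on the mean level of the bins inside, with a standard error of 0.10 on the log2 scale, and 79 were not called. After centring each library on its median over the long genes, chromosome X included, 213 were higher and 293 lower. This took away the shift of the long genes themselves and not that of all bins. The balance of these 2 counts is therefore set largely by construction. The median difference was 0.0775, 224 genes had a difference above 0.1 and 12 one as far below 0. Annotated genes that overlap were counted separately, so these genes are not all separate regions. For example, Gm42416, Gm37013 and Gm37388 had the same levels over 8 bins each.

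Among the long genes, the largest rise was in Tjp1. It had levels of 0.518, 0.492 and 0.485 in cortex and 0.777 and 0.760 in cerebellum, a rise of 0.270. Prickle2 rose by 0.246 over 3 bins, from 0.531 ± 0.0149 (SD, n = 3) to 0.776 ± 0.00968 (SD, n = 2). Grin2b, a subunit of the NMDA receptor, had 0.553, 0.555 and 0.549 in cortex and 0.763 and 0.750 in cerebellum, a rise of 0.204 that was even along the gene, from 0.201 to 0.210 per bin. Lrrc7, the postsynaptic protein densin, rose by 0.211 over 4 bins, and Kalrn by 0.208 over 5. The others were Asap1, Rasal2, a Ras GTPase-activating protein, Kctd16, an auxiliary subunit of GABA-B receptors, Phactr1, a regulator of actin and protein phosphatase, Slc24a2, a sodium, calcium and potassium exchanger, Epha5, an ephrin receptor, and Tanc2, a postsynaptic scaffold, with rises from 0.190 to 0.224. The 500 kb on either side of these 12 genes, which were not tested, differed by 0.0545 to 0.0929 in the same direction. In each of them the gene was below its flanks in cortex, by 0.0314 in Tanc2 to 0.143 in Asap1, while in cerebellum the gene minus its flanks ranged from -0.00756 in Kctd16 to 0.104 in Tanc2, with Asap1 (0.00436 ± 0.00414) and Epha5 (0.00587 ± 0.0117, SD, n = 2) near the level of their flanks.

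The largest fall among the long genes was in Rbfox3, as among the bins it spans. Rbfox3 had levels of 0.521, 0.516 and 0.518 in cortex and 0.258 and 0.251 in cerebellum, a fall of 0.264, while its flanks went from 0.593 to 0.611. Chn2 fell from 0.637 ± 0.0240 (SD, n = 3) to 0.403 ± 0.00109 (SD, n = 2), with a difference of 0.0744 in the flanks. Zfp521, a zinc finger transcription factor, fell from 0.682 to 0.477, and Ablim1, an actin-binding LIM protein, from 0.541 to 0.355.

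Cacna1a, the pore-forming subunit of the P/Q-type calcium channel of Purkinje and granule neurons, had levels of 0.567, 0.528 and 0.543 in cortex and 0.376 and 0.380 in cerebellum. Atp2b2, a plasma membrane calcium pump, fell from 0.520 to 0.415, Plcb4, a phospholipase C that acts downstream of metabotropic glutamate receptors, from 0.673 to 0.570, and Camk2d, a calcium/calmodulin-dependent kinase, from 0.647 to 0.546. The remaining genes were Clybl, a mitochondrial lyase, Nedd4l, a ubiquitin ligase, Pld5, of the phospholipase D family, and Syne1, which encodes the nuclear envelope protein nesprin, with differences from -0.114 to -0.101. Bin changes ran from -0.171 to -0.0372 in Atp2b2, where 1 of 2 bins was called lower. They ran from -0.151 to -0.0250 in Plcb4 (2 of 3 called) and from -0.205 to -0.0410 in Syne1 (3 of 4). In the other genes named for a fall, every bin inside was called lower. The flanks of these 12 genes, which were not tested, had differences from 0.00956 around Clybl to 0.115 around Plcb4, beside a median of 0.0613 over all bins. The highest adjusted p among the 24 genes by limma was 1.0e-09.

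Bins were grouped by what the annotation and the sequence place in them, and each library gave 1 value per group. The mean difference was 0.0638 in bins with no gene, 0.0534 in those partly covered and 0.0733 in those wholly inside genes. The step from gene-free to genic bins was -0.0716, -0.0665 and -0.0676 in the cortex libraries and -0.0585 and -0.0596 in the cerebellum libraries, so the tissues did not overlap, and it differed by 0.00948 with a standard error of 0.00164. For bins wholly inside protein-coding genes, the difference was 0.0641 where the longest gene was under 250 kb and 0.0879 where it was over 1 Mb. The longest genes lay above the shortest by 0.00982, 0.00759 and 0.0114 in cortex and by 0.0338 and 0.0331 in cerebellum, a difference of 0.0238 with a standard error of 0.00117. Bins with 5 or more gene starts differed by 0.0299 between tissues, against 0.0643 for those with none, which is -0.0344 with a standard error of 0.00226. The exact permutation p of these 3 contrasts was 0.1 and that of the most against the fewest CpG sites (difference -0.0159) was 0.2, with adjusted values of 0.133 and 0.2 over the 4 contrasts.

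By chromosome, the mean difference was smallest on chromosome 7, at 0.0361, where 11.1% of bins (158) were lower in cerebellum, and on chromosome 17, at 0.0460, where 6.53% (60) were lower. It was largest on chromosome 16, at 0.0686.

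The falls were grouped along the genome. The 814 bins formed 485 runs of touching bins, of which 316 were single bins and 73 held 3 or more, and 61.2% of the falling bins lay in runs of 2 or more. The count of 73 was 36 without cortex 1, 43 without cortex 2, 41 without cerebellum 1 and 15 without cerebellum 2. The longest runs were shallow and lay over clusters of gene families that act outside the brain. The longest, of 17 bins (chr17:18100001-19800000), covered vomeronasal receptor genes of the Vmn2r family, which detect pheromones, and went from 0.754, 0.748 and 0.727 in cortex to 0.702 and 0.683 in cerebellum. The next covered Skint5 and Skint6, of a family of thymus and skin genes, over 9 bins, and fell from 0.716 to 0.664. The other 6 of the 8 longest held 7 or 8 bins each over further Vmn1r and Vmn2r genes, Nlrp4b with Zscan4 genes, Sult2a sulfotransferases or Scgb secretoglobins, and fell by 0.0517 to 0.0658.

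Over the whole families, which were chosen after these values were seen, 38 of 101 bins with Vmn1r genes, 43 of 118 with Vmn2r genes, 13 of 22 with Skint genes, 11 of 22 with Scgb genes and 8 of 8 with Sult2a genes were lower. Higher bins numbered 15 for Vmn1r, 14 for Vmn2r, 4 for Scgb and 0 for Skint and Sult2a. Together 110 of 268 bins were lower, or 13.5% of all falls, and 33 were higher. Of the 268 bins, 1 fell by more than 0.1. The Sult2a bins had levels of 0.758, 0.757 and 0.728 in cortex and 0.692 and 0.683 in cerebellum. The olfactory receptor genes (Olfr), which also stand in large clusters, were lower in 14 of 342 bins and higher in 109, so the share of falls, 4.09%, was near the background of 3.39% and the share of rises, 31.9%, below that of 74.3%. Members of these families resemble each other in sequence and reads were kept only where they mapped uniquely. The part of this in the levels was not tested.

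Genes known for one cell type were described by the bin with their start. The lists were chosen with earlier results of these data known, so their counts are a description. The bins of Fat2, Mef2c and Slc4a4 are also among the largest changes named above. Of all bins with the start of a protein-coding gene, 62.8% were higher and 4.20% lower, with a median difference of 0.0536. The genes of cerebellar granule neurons had the lowest median of the lists. Their 19 genes start in 17 bins, of which 11 were lower, 6 not called and 0 higher in limma, with a median difference of -0.0634. After centring, which lowers every difference by the same amount on the log2 scale, all 17 were lower.

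Besides Fat2, the largest falls of granule neuron genes were in receptors and regulators. The bin of Grin2c, an NMDA receptor subunit of mature granule neurons, had levels of 0.532, 0.533 and 0.497 in cortex and 0.355 and 0.313 in cerebellum. The bin of the start of Chn2 had 0.583, 0.587 and 0.568 against 0.409 and 0.392. That of Neurod1, a transcription factor of granule neuron differentiation, had 0.563, 0.572 and 0.539 against 0.433 and 0.428. The tissues were apart in each. Smaller falls, between -0.0915 and -0.0593, were called for Cbln1, a secreted synapse organiser, Cadps2, a vesicle priming factor, Gabrd, a GABA-A receptor subunit, Zic2 and Zic5, transcription factors that share a bin, Reln, a secreted guide of migration, Grm4 and Pax6, a transcription factor. Gabra6, the GABA-A receptor subunit that defines granule neurons, was not called, at 0.698 ± 0.00396 (SD, n = 3) in cortex and 0.706 ± 0.020 (SD, n = 2) in cerebellum, nor was the bin shared by Zic1 and Zic4 (0.318 and 0.296).

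The counts of the genes of Purkinje cells, which are far fewer in the cerebellum than granule neurons, were close to the background. Of their 17 bins 11 were higher, 1 lower and 5 not called, with a median difference of 0.0598. Itpr1, the inositol trisphosphate receptor that Purkinje cells hold in high amount, had levels of 0.542, 0.556 and 0.533 in cortex and 0.688 and 0.675 in cerebellum, and Foxp2, a transcription factor, rose by 0.133. After centring, 2 of the 17 were higher and 4 lower.

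The genes of cortical excitatory neurons had the highest median of the lists. Of their 21 bins 16 were higher, 0 lower and 5 not called, with a median difference of 0.102, and after centring 12 were higher and 4 lower. Besides Mef2c, Bcl11a, a zinc finger transcription factor, had levels of 0.423, 0.486 and 0.370 in cortex and 0.609 and 0.597 in cerebellum. The bin of Camk2a, a calcium/calmodulin-dependent kinase of forebrain excitatory synapses, rose by 0.170, and that of Tle4, a corepressor of deep-layer neurons, by 0.165. None of these tissues' libraries overlapped. The bin of Slc17a7, the vesicular glutamate transporter that granule neurons also use, was not called, at 0.414 and 0.398.

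The lists of other cells and functions had medians near that of all bins. Higher bins numbered 10 of 11 for cortical interneurons, 12 of 15 for oligodendrocytes and myelin, 9 of 12 for astrocytes, 7 of 10 for microglia and endothelium, 9 of 15 for hindbrain patterning and 6 of 11 for the enzymes of DNA methylation and oxidation. Their medians ran from 0.0489 for hindbrain patterning to 0.0665 for astrocytes, and the lower bin among them was that of Slc4a4. After centring, higher and lower bins numbered 0 and 0 for interneurons, 5 and 2 for oligodendrocytes, 4 and 2 for astrocytes, 1 and 2 for microglia and endothelium, 2 and 3 for patterning, and 1 and 4 for the enzymes. Single members rose well beyond the median. Slc1a2, the main glutamate transporter of astrocytes, had levels of 0.514, 0.503 and 0.493 in cortex and 0.687 and 0.667 in cerebellum. Enpp2, a secreted phospholipase of oligodendrocytes, rose by 0.121, and Tet2, which oxidises 5mC, by 0.114. The Irx2 bin, of a hindbrain homeobox gene, rose by 0.131.

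**Figure D5:**
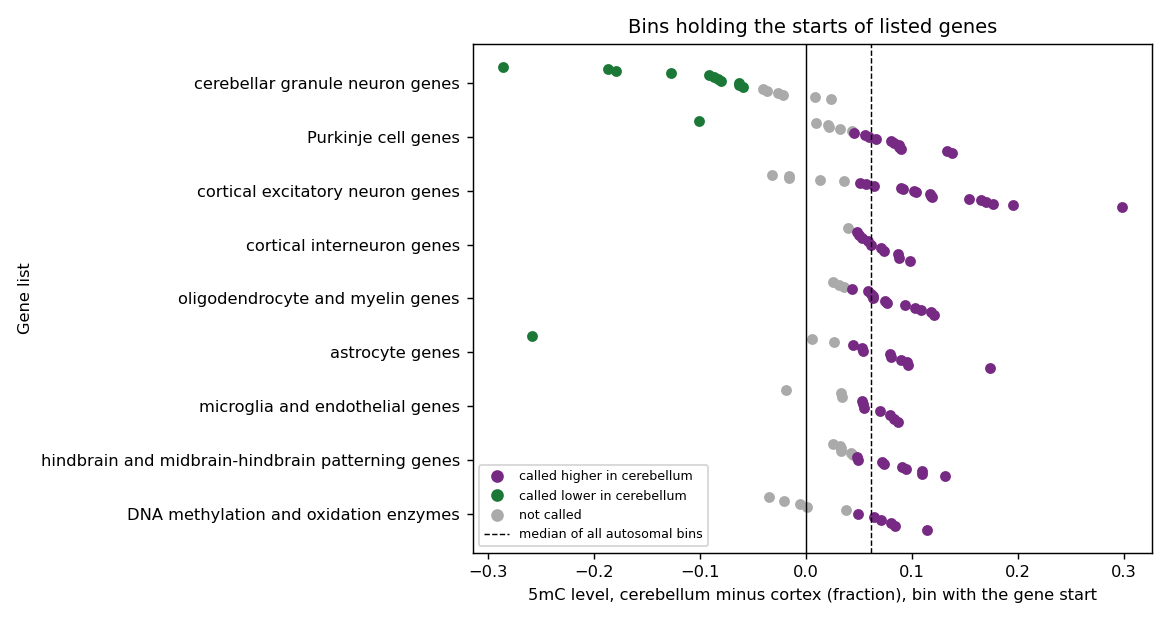
Difference in 5mC level (fraction, cerebellum minus cortex) of the bins that hold the starts of listed genes, 1 point per bin and 1 row per list, coloured by the call, with the median of all autosomal bins (0.0613) dashed. The granule neuron row lies furthest left, with 11 of 17 bins called lower, and the cortical excitatory neuron row reaches furthest right, with 16 of 21 called higher. The lists were chosen with earlier results of these data known.

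5hmC was set beside 5mC in bins of 1 Mb, the only size deposited for TAB-seq. Over 2413 autosomal bins the mean 5hmC level changed by -0.0704 from cortex to cerebellum and the mean 5mC level by 0.0583, so their sum changed by -0.0122. 5hmC was lower in 2390 of the bins and 5mC higher in 2301, and both held in 2288. Across bins Pearson's r of the changes was -0.69, as a description over bins that share the libraries of each assay. The fifth of bins that lost most 5hmC (mean change -0.106) changed by 0.0823 in 5mC, and the fifth that lost least (-0.0288) by 0.0240.

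The 12 rises named above lay in 12 different 1 Mb bins and the 12 falls in 10, since the Rbfox3 bins share 1. 5hmC was lower in cerebellum in 12 of 12 and 9 of 10 of them, as in 2390 of 2413 bins of the genome. Around Zeb2 it went from 0.196 ± 0.0108 to 0.0724 ± 0.00193 (SD, n = 3 each), and around Flrt2 from 0.177 ± 0.0129 to 0.0535 ± 0.000457. Around the falls it changed less, from 0.198 ± 0.0120 to 0.165 ± 0.00207 at Chd7 and from 0.204 ± 0.00942 to 0.203 ± 0.00609 at Rbfox3. The 1 Mb with Rbfox3 also had the lowest 5mC change of all, -0.0903, with a change in 5hmC within the spread of the libraries. Next came a 1 Mb bin of chromosome 7 with Tpcn2 and Mrgprd, at -0.0688, where 5hmC went from 0.188 ± 0.00724 to 0.154 ± 0.00798 (SD, n = 3 each). In the 1 Mb bins over Scgb, Sult2a, Vmn2r and Vmn1r genes on the same chromosome, with 5mC changes of -0.0569 to -0.0517, 5hmC was low in both tissues, at 0.0174 to 0.0204 in cortex and 0.0134 to 0.0147 in cerebellum.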

How the data were processed

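OxBS-seq libraries of cortex (3) and cerebellum (2) were compared. The authors mapped reads uniquely to mm10 with Bismark, tested CpG sites with a binomial model and deposited, per library, the 5mC level of 100 kb bins as a fraction from 0 to 1, without counts or coverage. TAB-seq 5hmC levels were deposited as fractions in 1 Mb bins. How sites or reads of a bin were combined is not given in the sources used here. The depth per bin is unknown, so no counting interval was computed.

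Autosomal bins at 0 or 1 in any library were left out. limma 3.58.1 (R 4.3.3) was fitted to log2(level/(1 − level)) over 25664 bins, chromosome X included, with Benjamini-Hochberg adjustment. Gene positions, gene starts and CpG sites came from GENCODE release M 21 and the GRCm38 sequence. Library means were compared with two-sided exact permutation tests (Python 3.11.15, scipy 1.17.1), and plots used matplotlib 3.10.9. The limma step was tested on simulated data. Levels for genes were unweighted means of the bins wholly inside. Flanks were 500 kb on each side.

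Named bins and genes are the 12 largest rises and 12 largest falls in mean level that passed an adjusted p of 0.05 without overlap between tissues. Named runs are the 8 longest. Listed genes are those whose bin was called, largest change first. Some listed genes are not reported here. Gabra6, Zic1, Zic4, Barhl1 and Slc17a7, whose bins were not called, were named after their values were seen. The members and the 9 lists were chosen with earlier results of these data known. Replicates of a tissue came from independent mice. The paper words the dissection of the tissues as from a mouse, in the singular. It does not say which libraries share a mouse, and the main fit used no pairing. Sequencing batches are not given in the sources used here. Alternatives were library centring, the fraction scale, a fit with olfactory bulb, trend and robust options, levels kept 0.001 away from 0 and 1, at least 500 CpG sites, autosomes only, a replicate block, at least 3 bins inside a gene, other gene classes and averages, and each library left out.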

Additional observations from a re-analysis of the deposited data

How the results depend on the processing

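The 24 bins and 24 genes named for their changes kept their direction and their call under each alternative that could be run for them, except Myo3a with limma's trend and robust options. The differences in library means and between classes of bins kept their direction, but centring each library on its median takes the shift away by construction and left a mean difference of 0.00196 in place of 0.0584. The classes were not centred. For genes, centred on the median of the long genes, the counts were 213 higher and 293 lower. Centring of the bins gave 6659 higher and 4839 lower, 488 runs of 3 or more falling bins, and 27 and 38 listed bins. It turned the direction, on the log2 scale, of Mbd4 (-0.0285), Pecam1 (-0.0780), Gabra6 (-0.349) and Barhl1 (-0.266), and with 1 library left out Gabra6 ranged from -0.0384 (without cerebellum 2) to 0.158. With levels kept 0.001 away from 0 and 1 in place of leaving bins out, 7906 bins were higher and 203 lower, with 5 runs and 35 and 6 listed bins. There the pooled standard error on the log2 scale was 0.24 in place of 0.13, as bins at 0 entered. With at least 3 bins inside a gene, 359 genes were higher and 23 lower, as fewer were tested. Leaving out 1 library gave 12230 to 18020 bins higher and 390 to 1228 lower, 15 to 103 runs, and 53 (without cerebellum 1) to 80 listed bins higher and 10 to 17 lower. For genes it gave 540 to 588 higher and 32 to 54 lower.

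The replicate numbers of the labels paired the samples weakly (r of deviations 0.013 and -0.027). With them as a replicate block, 16955 bins were higher and 1191 lower, and with the numbers in the library names 19992 and 1006. With 2 cerebellum libraries, the exact tests could not go below 0.1, and the pooled standard error leaves noise of single bins, such as that in Myo3a, out of their p-values. Coverage per bin is unknown.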
